A study of Homo sapiens with 6 samples.

Results

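Entry into mitosis is driven by cyclin B bound to the kinase CDK1, and exit from it by the anaphase-promoting complex, a ubiquitin ligase that marks cyclin B and securin for destruction. Between these steps chromosomes condense, attach to spindle microtubules at the kinetochores under the watch of the spindle checkpoint, and are pulled apart before cytokinesis divides the cell. The genes of this machinery are transcribed in a wave in late S, G2 and M phase, so in a growing culture their messages come mostly from the cells in those phases. FOXM1, B-MYB and the MuvB complex are known activators of that wave.

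The 37 genes described here are G2/M and mitosis genes, taken by symbol from a fixed list out of 23228 gene symbols with counts. All 37 were found, all passed the filter on low counts, and each had between 264 and 25490 reads per library. The list was drawn up without kinesin motors, although one member, CENPE, itself encodes a kinesin-like motor of the kinetochore. The RNA came from U2OS, an established line grown from a human osteosarcoma, harvested 48 hours after siRNA transfection. In 3 libraries siRNAs targeted ALKBH5 (knockdown), and in 3 the siRNA was scrambled (controls). ALKBH5 is an enzyme that takes the methyl group off N6-methyladenosine in RNA. The 6 libraries include no untransfected cells and no rescue, so loss of ALKBH5 and other effects of the siRNAs cannot be told apart. The labels do not say whether libraries of a group come from separate cultures, and p-values measure the spread between these libraries only.

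The libraries held 18817181 to 23410007 reads in genes. Levels are given in CPM, reads of a gene relative to all reads in genes of its library, in which 1 CPM stood for 18.8 to 23.4 reads depending on the library. CPM values were then scaled by TMM factors, which correct for the make-up of each library, and every fold change is knockdown over scrambled. ALKBH5 itself stood at 19.4, 16.2 and 15.7 CPM in the knockdown libraries, against 138, 148 and 143 CPM in the scrambled libraries (log2 fold change −3.06, SE 0.10, edgeR adjusted p = 1.6e-09; exact 2-sided permutation p = 0.1, the smallest that 3 libraries against 3 allow). Of 12 mesenchymal and osteoblast markers 8 had a mean of 1 CPM or more, with a sum of 4792 to 5548 CPM in the knockdown and 5520 to 5746 CPM in the scrambled libraries. VIM, COL1A1 and SPARC were at 1115 CPM or more in every library. The osteoblast genes SPP1, at 12.2 to 22.3 CPM, and ALPL, at 2.10 to 4.54 CPM, were low, and IBSP, SP7 and BGLAP were at or near 0 in both groups. Of the mesenchymal genes, TWIST1 was at or near 0 and COL1A2 at 0.768 to 9.70 CPM. The summed level of 6 leukocyte markers was 5.99 to 9.32 CPM in the knockdown and 4.33 to 7.01 CPM in the scrambled libraries, with CD3E at 0, and that of 5 endothelial markers was 2.36 to 3.58 CPM in the knockdown and 6.85 to 9.61 CPM in the scrambled libraries, with PECAM1 near 0. Of 7 epithelial markers KRT8 and KRT18 carried nearly all of a sum of 551 to 584 CPM in the knockdown and 506 to 599 CPM in the scrambled libraries. Of all uniquely placed reads, 17.9% ± 0.656 fell outside genes after knockdown and 15.3% ± 0.230 in the controls (SD, n = 3 each). The part of these marker and read differences in the results below was not tested.

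The promoters of several members are shown first, because elements known to drive the G2/M wave can be read in them. The CHR (cell cycle genes homology region) is a short element bound by MuvB, and the CCAAT box is bound by NF-Y. The sequences below are the 150 bases just before the annotated start of transcription, read 5′ to 3′ on the strand of the gene, from RefSeq promoters of GRCh38.p14. Capitals mark the CHR letters TTTGAA, the related letters TTTAAA and the letters CCAAT, each on either strand. The first 3 genes were called lower after knockdown (adjusted p under 0.05), and the last 3 were not called. The genes shown are examples picked by no set rule.
CCNB1 (chr5:69167000-69167149, plus strand): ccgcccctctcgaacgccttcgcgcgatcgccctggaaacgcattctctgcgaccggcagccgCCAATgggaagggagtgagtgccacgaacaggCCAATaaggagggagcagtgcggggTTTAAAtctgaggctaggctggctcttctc
CCNB2 (chr15:59104996-59105145, plus strand): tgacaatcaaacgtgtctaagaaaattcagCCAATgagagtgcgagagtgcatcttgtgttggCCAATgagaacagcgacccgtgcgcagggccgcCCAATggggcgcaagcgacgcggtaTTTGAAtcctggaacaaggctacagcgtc
PRC1 (chr15:90994536-90994685, minus strand): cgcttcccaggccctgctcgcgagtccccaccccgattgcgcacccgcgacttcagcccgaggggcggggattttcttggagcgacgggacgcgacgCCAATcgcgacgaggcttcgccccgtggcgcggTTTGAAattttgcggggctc
CCNA2 (chr4:121823884-121824033, minus strand): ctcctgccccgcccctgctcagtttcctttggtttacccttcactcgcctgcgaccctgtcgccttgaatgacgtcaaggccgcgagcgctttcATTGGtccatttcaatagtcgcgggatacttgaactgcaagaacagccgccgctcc
ANLN (chr7:36389712-36389861, plus strand): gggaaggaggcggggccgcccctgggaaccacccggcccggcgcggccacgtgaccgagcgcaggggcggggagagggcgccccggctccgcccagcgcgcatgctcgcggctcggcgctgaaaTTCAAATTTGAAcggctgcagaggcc
CDC25B (chr20:3786801-3786950, plus strand): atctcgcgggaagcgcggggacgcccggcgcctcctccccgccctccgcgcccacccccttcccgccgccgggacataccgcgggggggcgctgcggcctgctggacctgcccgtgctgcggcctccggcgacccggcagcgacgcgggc

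CCNB2 held TTTGAA 29 bases and PRC1 20 bases before the start, each with a CCAAT box further up. CCNB1 held TTTAAA in place of TTTGAA at 30 bases before the start, below a pair of CCAAT boxes. Among the genes not called, ANLN held a back-to-back pair of TTTGAA matches with no CCAAT box. CCNA2 held a CCAAT box with no TTTGAA or TTTAAA, and CDC25B none of these letters in the window. ECT2, not called and not shown, held TTTGAA 115 bases and CCAAT 97 and 58 bases before the start. It also held a CCAAT across the start and a further TTTGAA after it. Only exact letters were searched, so an element spelled otherwise was not marked. Matches of the first 2 patterns cannot overlap each other and can share at most 1 base with a CCAAT box.

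The promoter table had entries for 29 of the 37 members (78.4%), which is under the 80% set for a check of a whole list, so a check of the list is void and the counts hold for these 29 only. In windows of 250 bases before to 50 after the start, TTTGAA on either strand was in 21 of the 29 (72.4%), against 15.4% of all 27305 promoters in the table. CCAAT was in 22 (75.9%), against 35.7% of all promoters, and TTTAAA in 10 (34.5%), against 12.3%. Both TTTGAA and CCAAT were in 17 (58.6%), against 6.08%. The mitotic kinesins, none of them a member, had similar shares, with TTTGAA in 8 of 11 (72.7%), CCAAT in 9 (81.8%) and both in 7 (63.6%). Of 13 genes of the MCM helicase and its loaders with an entry, 8 held CCAAT (61.5%) and 1 held TTTGAA (7.69%). Of the 25 members called lower that had an entry, 19 held TTTGAA and 20 held CCAAT. CENPE and CDC25C, both called lower, held neither in the window searched. Only the first listed start of each gene was searched, so elements at another start of a gene would not be counted. Of the 4 members not called that had an entry, 2 held TTTGAA and 2 held CCAAT. A match is a run of letters and not a site shown to be bound in these cells. The table held no entry for AURKA, BUB3, TTK, TPX2, BIRC5, UBE2C, FOXM1 and PBK.

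Messages of the G2/M and mitosis genes were lower after knockdown in nearly every member, mostly by modest amounts. At an adjusted p under 0.05 (edgeR's quasi-likelihood test, Benjamini-Hochberg over all 14504 tested genes), 31 of the 37 fell, against 30.8% of all tested genes that fell. None rose, while 30.8% of all tested genes did; limma-voom and DESeq2 also called 0 members higher and 31 lower, and 0 of the members with a positive fold change had an unadjusted p under 0.05. The median log2 fold change was −0.54 over the members (quartiles −0.75 and −0.35) and 0.01 over all tested genes. The members were chosen with earlier results of these data known, and their counts are therefore a description. In bulk RNA, fewer cells in G2 and M phase and less RNA of these genes per cell cannot be told apart.

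Most changes were under 2-fold. The members that fell did so by 1.22-fold (NUSAP1) to 3.35-fold (MAD2L1). Of the 37, 4 fell by 2-fold or more, MAD2L1, CCNB1, PRC1 and CENPE, a share close to the 9.34% of all tested genes. When the test asked for a change beyond 1.5-fold (edgeR's glmTreat), 10 members were lower, against 11.8% of all tested genes. These were MAD2L1, CCNB1, PRC1, CENPE, MKI67, CDC20, CENPA, AURKB, BUB1 and CENPF. All 3 knockdown libraries lay below all 3 scrambled libraries in 33 of the 37, against 33.9% of all tested genes.

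**Figure D1:**
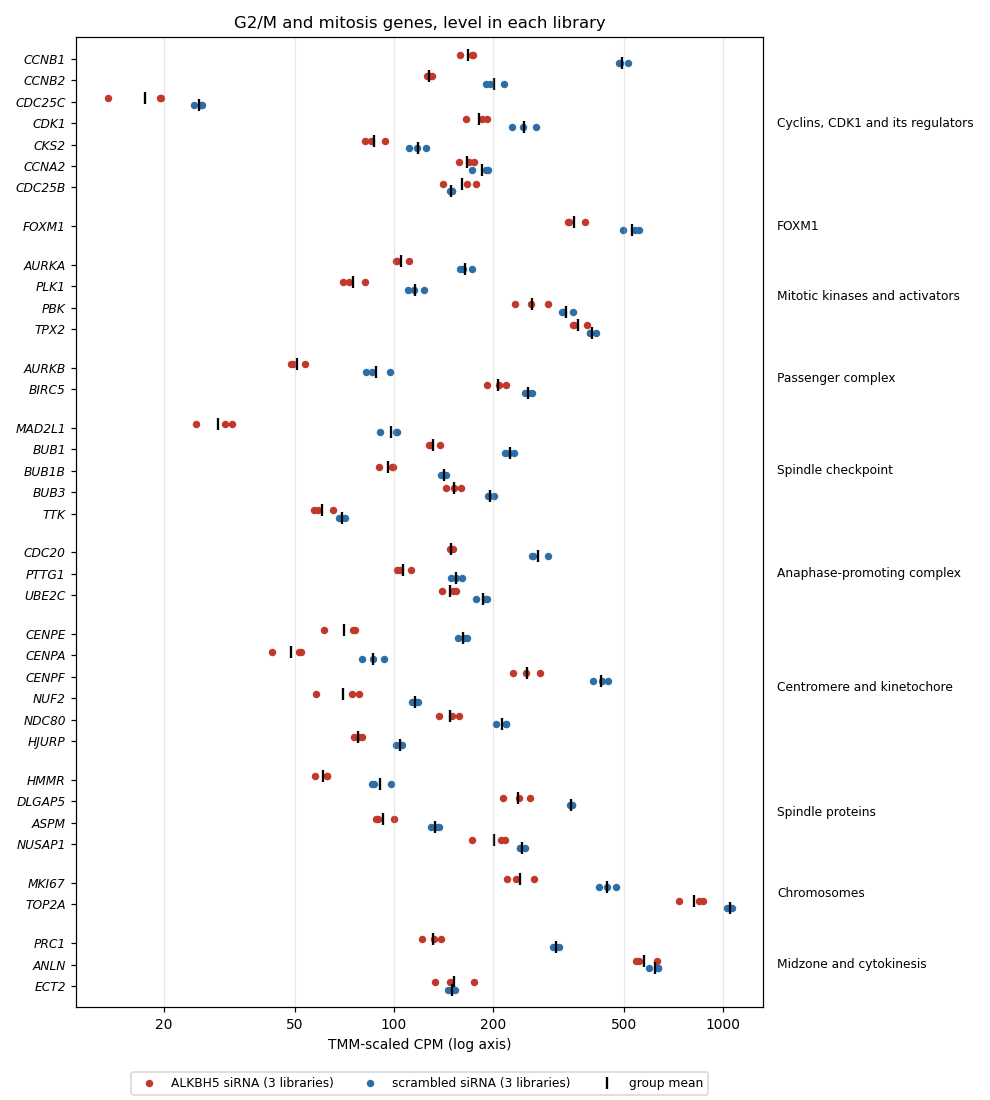
TMM-scaled CPM (log axis) of each of the 37 genes in the 3 ALKBH5 siRNA libraries (red) and the 3 scrambled siRNA libraries (blue), with group means as black bars and genes grouped by role. The red points lie left of all blue points in 33 genes and overlap them in CCNA2, ANLN, ECT2 and CDC25B.

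Among cyclins, CDK1 and its regulators 5 of 7 fell, and the B-type cyclins fell unequally. Counts by role, here and below, stand beside 30.8% of all tested genes called lower. For all 3 knockdown libraries lying below all controls the share was 33.9% of all tested genes. No role was tested as a group. CCNB1, the cyclin that brings CDK1 to full activity in mitosis, stood at 173, 174 and 159 CPM in the knockdown libraries, against 483, 487 and 514 CPM in the scrambled libraries. The groups lie far apart and each is tight, and the level fell 2.94-fold (log2 fold change −1.55, SE 0.07, edgeR adjusted p = 1.4e-08). CCNB2, the second B-type cyclin, had 129, 131 and 126 CPM after knockdown and 196, 192 and 216 CPM in the controls, a smaller fall without overlap (log2 fold change −0.65, SE 0.08, edgeR adjusted p = 1.3e-05).

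CDK1, the kinase itself, was at 186, 192 and 166 CPM after knockdown and 247, 229.7 and 271 CPM in the controls (log2 fold change −0.45, SE 0.09, edgeR adjusted p = 0.00066). Its small partner CKS2, which helps CDK1 complexes dock on phosphorylated substrates, was at 82.1, 94.4 and 85.2 CPM after knockdown and 118, 112 and 126 CPM in the controls (log2 fold change −0.44, SE 0.08, edgeR adjusted p = 7e-04). CDC25C, a phosphatase that removes the inhibitory phosphates of CDK1, was the least abundant member in CPM, at 19.7, 19.5 and 13.5 CPM after knockdown and 25.97, 26.2 and 24.7 CPM in the controls (log2 fold change −0.54, SE 0.14, edgeR adjusted p = 0.0049). Knockdown replicate 3 was well under the other 2 knockdown libraries, with a coefficient of variation of 20.01% in that group, the largest among the 37 genes.

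CCNA2 and CDC25B were not called. CCNA2, the cyclin A that works with CDK2 in S phase and with CDK1 in G2, had 169, 176 and 158 CPM after knockdown and 173, 191 and 194 CPM in the controls. One control library lay inside the knockdown range, and the log2 fold change was −0.15 (95% interval −0.32 to 0.02, edgeR adjusted p = 0.12). With library totals in place of TMM scaling it was called lower (−0.22, edgeR adjusted p = 0.025). CDC25B, a phosphatase that starts CDK1 activation in G2, had 167, 141 and 177 CPM after knockdown and 151, 148 and 151 CPM in the controls. Knockdown replicate 2 was below, and the other two were above, every control library (log2 fold change 0.11, 95% interval −0.08 to 0.30, edgeR adjusted p = 0.29). Without that library CDC25B was called higher (log2 fold change 0.20, edgeR adjusted p = 0.029).

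Ratios of reads within a library do not depend on how libraries are scaled, and they show the unequal falls directly. These ratios were picked after the values were seen and carry no test. CCNB1 had 1.35, 1.33 and 1.26 reads per read of CCNB2 in the knockdown libraries, against 2.46, 2.54 and 2.38 in the scrambled libraries. Per read of CDK1 it had 0.929, 0.903 and 0.957 after knockdown and 1.96, 2.12 and 1.90 in the controls. Per read of CCNA2 the values were 1.023, 0.990 and 1.007 after knockdown and 2.80, 2.55 and 2.65 in the controls. In each of these 3 ratios the groups lie apart by more than their own spread.

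FOXM1, the transcription factor that activates many of the other members, fell 1.504-fold. It had 342, 381 and 339 CPM in the knockdown libraries and 497, 541 and 558 CPM in the scrambled libraries, with no overlap (log2 fold change −0.59, SE 0.08, edgeR adjusted p = 4.3e-05).

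Of the 4 mitotic kinases and activators 3 fell. AURKA, the Aurora kinase of spindle poles, had 102, 111 and 102 CPM after knockdown and 162, 159 and 173 CPM in the controls (log2 fold change −0.65, SE 0.08, edgeR adjusted p = 1.4e-05). PLK1, the Polo-like kinase that acts from mitotic entry to cytokinesis, had 81.99, 70.1 and 73.3 CPM after knockdown and 111, 115 and 123 CPM in the controls (log2 fold change −0.63, SE 0.09, edgeR adjusted p = 4.9e-05). PBK, a mitotic kinase also called TOPK, had 261, 294 and 234 CPM after knockdown and 327, 325 and 351 CPM in the controls (log2 fold change −0.35, SE 0.09, edgeR adjusted p = 0.0049). In all 3 genes each knockdown library was below each control, most narrowly in PBK.

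TPX2, which binds and activates AURKA on spindle microtubules, did not pass. Its level was 352, 387 and 354 CPM after knockdown and 395, 396 and 412 CPM in the controls, all 3 knockdown values being lower by a small margin (log2 fold change −0.14, 95% interval −0.30 to 0.02, edgeR adjusted p = 0.11). It was called lower without knockdown replicate 2 (edgeR adjusted p = 0.042) and with library totals (0.018). Reads of AURKA per read of TPX2 numbered 0.291, 0.287 and 0.287 in the knockdown libraries, against 0.411, 0.402 and 0.420 in the controls.

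Both members of the chromosomal passenger complex fell. AURKB, its kinase, had 49.3, 48.9 and 53.9 CPM after knockdown and 85.7, 82.2 and 97.6 CPM in the controls (log2 fold change −0.80, SE 0.09, edgeR adjusted p = 1.2e-05). BIRC5 (survivin), which helps to place the complex at centromeres, fell to 209.5, 220.3 and 193 CPM after knockdown, against 257, 251 and 263 CPM in the controls (log2 fold change −0.31, SE 0.08, edgeR adjusted p = 0.0037). Neither gene's groups overlapped. Reads of AURKB per read of BIRC5 were 0.236, 0.222 and 0.280 after knockdown and 0.334, 0.328 and 0.3705 in the controls.

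**Figure D2:**
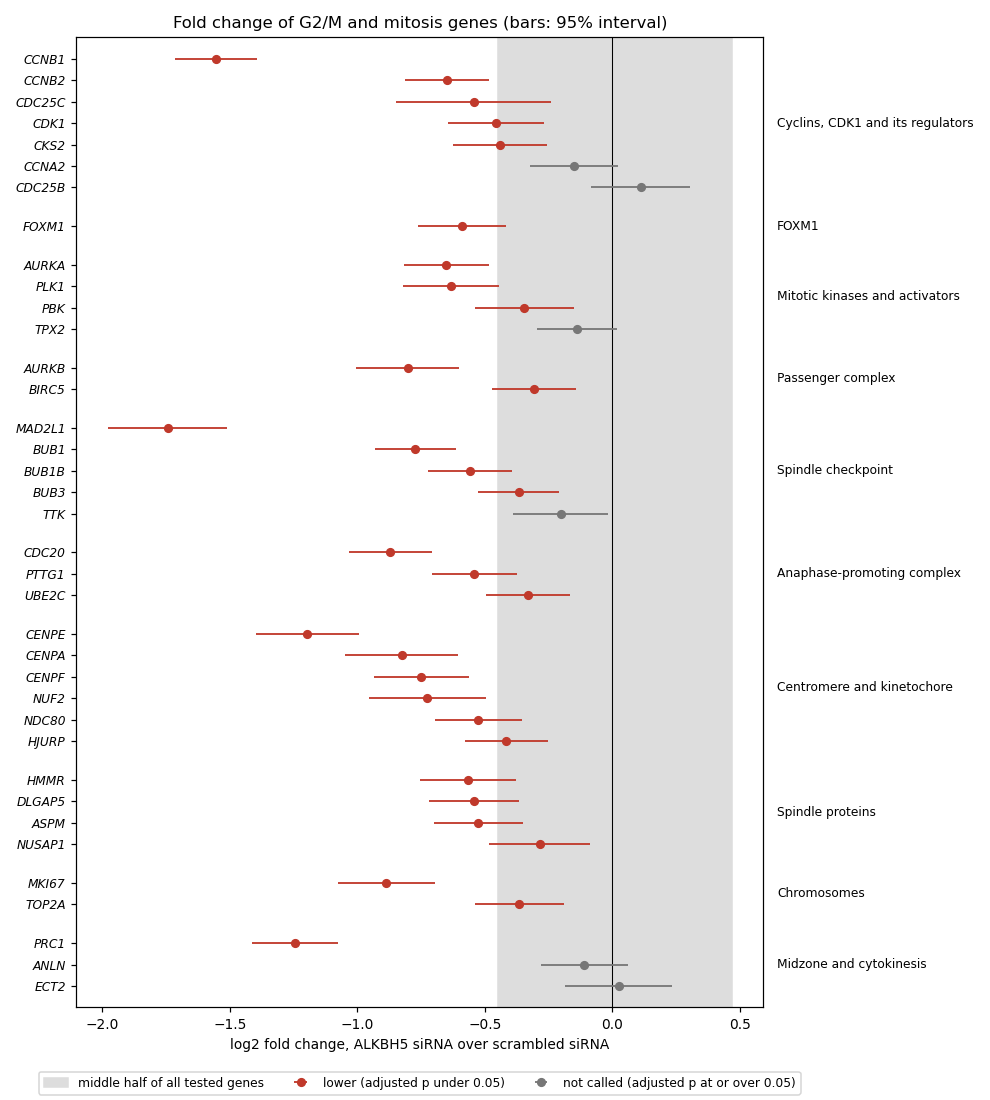
Log2 fold change of each of the 37 genes, ALKBH5 siRNA over scrambled siRNA, with 95% intervals, grouped by role; the grey band runs from −0.45 to 0.47, the quartiles of all 14504 tested genes. MAD2L1, CCNB1, PRC1 and CENPE lie below −1, and the 6 grey points, TTK, CCNA2, TPX2, ANLN, ECT2 and CDC25B, were not called.

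In the spindle checkpoint, which delays anaphase until every kinetochore is attached, 4 of 5 members fell. MAD2L1 (MAD2), the checkpoint protein that captures CDC20, showed the largest fall of the 37 genes. Counts of 631, 583 and 489 reads gave it 32.3, 30.7 and 25.04 CPM in the knockdown libraries, against 90.98, 102 and 102 CPM in the scrambled libraries. All knockdown libraries lay far below all controls (log2 fold change −1.74, SE 0.11, edgeR adjusted p = 8.1e-08).

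The other checkpoint genes had smaller fold changes than MAD2L1. BUB1, a kinetochore kinase of the checkpoint, had 128, 139 and 129 CPM after knockdown and 219, 225 and 233 CPM in the controls (log2 fold change −0.77, SE 0.07, edgeR adjusted p = 2.4e-06). BUB1B (BUBR1), a subunit of the inhibitor that holds the anaphase-promoting complex in check, had 99.8, 99.2 and 90.1 CPM after knockdown and 144, 139 and 142 CPM in the controls (log2 fold change −0.56, SE 0.08, edgeR adjusted p = 4.7e-05). BUB3, the partner that carries both to kinetochores, had 153, 160.0 and 145 CPM after knockdown and 193, 195 and 201 CPM in the controls (log2 fold change −0.37, SE 0.07, edgeR adjusted p = 9e-04). None of these groups overlapped.

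TTK (MPS1), the kinase at the top of the checkpoint, was not called. It had 59.01, 65.2 and 57.1 CPM after knockdown and 69.4, 71.3 and 68.1 CPM in the controls, groups that do not overlap but nearly touch. Its log2 fold change was −0.20 (95% interval −0.39 to −0.02), with an edgeR adjusted p of 0.055 just over the threshold. It was called lower without knockdown replicate 2 (edgeR adjusted p = 0.019) and with library totals in place of TMM scaling (0.013). With the replicate number as a block it was called lower too (edgeR adjusted p = 0.028). Reads of MAD2L1 per read of BUB1B were 0.324, 0.309 and 0.278 after knockdown and 0.633, 0.730 and 0.718 in the controls.

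All 3 genes tied to the anaphase-promoting complex fell. CDC20, its activator and the target of the checkpoint, had 149.9, 148 and 151 CPM in the knockdown libraries, the tightest knockdown group among the 37 genes, with a coefficient of variation of 0.993%. The scrambled libraries had 263, 265 and 294 CPM (log2 fold change −0.87, SE 0.07, edgeR adjusted p = 1.1e-06). PTTG1 (securin), the inhibitor of separase that the complex destroys, had 105, 113 and 102 CPM after knockdown and 155, 149 and 161 CPM in the controls (log2 fold change −0.54, SE 0.08, edgeR adjusted p = 6.2e-05). PTTG1 shares sequence with retrocopies, and reads of one of them, PTTG2, named here for that likeness, also fell, to 17.2, 19.6 and 17.4 CPM after knockdown, against 27.8, 23.7 and 24.8 CPM in the controls (edgeR adjusted p = 0.002), so how reads divide between them is uncertain. UBE2C, the conjugating enzyme that starts ubiquitin chains for the complex, had 155, 140.0 and 151 CPM after knockdown and 178, 189.8 and 193 CPM in the controls (log2 fold change −0.33, SE 0.08, edgeR adjusted p = 0.0024).

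Every one of the 6 centromere and kinetochore genes fell, against 30.8% of all tested genes, with a median log2 fold change of −0.74. CENPE, the kinesin-like motor that moves chromosomes to the spindle equator, had 75.03, 76.1 and 61.6 CPM in the knockdown libraries, against 163, 168 and 156 CPM in the scrambled libraries (log2 fold change −1.20, SE 0.09, edgeR adjusted p = 4.6e-07). CENPA, the histone H3 variant that marks centromeres, had 52.3, 51.6 and 42.8 CPM after knockdown and 80.1, 86.5 and 93.6 CPM in the controls (log2 fold change −0.83, SE 0.10, edgeR adjusted p = 2.1e-05). HJURP, the chaperone that loads CENPA, fell too, with 80.04, 78.5 and 75.9 CPM after knockdown and 101, 106 and 106 CPM in the controls (log2 fold change −0.42, SE 0.07, edgeR adjusted p = 0.00044).

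CENPF, a large protein of the outer kinetochore, had 252, 278 and 230.4 CPM after knockdown and 429, 447 and 403 CPM in the controls (log2 fold change −0.75, SE 0.08, edgeR adjusted p = 1.1e-05). NDC80 and NUF2, a pair of subunits of one complex that grips microtubules, fell by 0.53 and 0.73 on the log2 scale. NDC80 had 151, 158 and 138 CPM after knockdown and 219, 204 and 219 CPM in the controls (edgeR adjusted p = 1e-04). NUF2 had 74.7, 78.3 and 58.2 CPM after knockdown, knockdown replicate 3 being the lowest, and 119, 114 and 117 CPM in the controls (edgeR adjusted p = 8.1e-05). In none of the 6 genes did the groups overlap, while 33.9% of all tested genes had all knockdown libraries below all controls. Reads of CENPA per read of HJURP were 0.654, 0.657 and 0.564 after knockdown and 0.789, 0.819 and 0.886 in the controls.

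The 4 spindle proteins fell, 3 of them by close to the same amount. HMMR, a spindle pole protein, had 62.9, 62.9 and 57.9 CPM after knockdown and 85.99, 87.4 and 98.4 CPM in the controls (log2 fold change −0.57, SE 0.09, edgeR adjusted p = 0.00013). DLGAP5 (HURP), which stabilises kinetochore microtubules, had 241, 260.1 and 215 CPM after knockdown and 349, 344 and 348 CPM in the controls (log2 fold change −0.54, SE 0.08, edgeR adjusted p = 0.00011). ASPM, which acts at spindle poles, had 89.7, 101 and 88.6 CPM after knockdown and 135, 137 and 129.6 CPM in the controls (log2 fold change −0.53, SE 0.08, edgeR adjusted p = 0.00011).

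NUSAP1, a microtubule-bundling protein of the spindle, showed the smallest called change. It had 219, 212 and 173 CPM after knockdown and 250.4, 243 and 243 CPM in the controls (log2 fold change −0.28, SE 0.09, edgeR adjusted p = 0.016), and its call was lost without knockdown replicate 3, the lowest library (log2 fold change −0.19, edgeR adjusted p = 0.058).

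The chromosome proteins TOP2A and MKI67 both fell. MKI67 (Ki-67), the proliferation marker that coats mitotic chromosomes, had 235, 268 and 221 CPM after knockdown and 444, 475 and 421 CPM in the controls (log2 fold change −0.89, SE 0.09, edgeR adjusted p = 3.3e-06). TOP2A, the topoisomerase that untangles sister DNA, had 847, 871 and 735 CPM after knockdown and 1061, 1068 and 1029 CPM in the controls (log2 fold change −0.36, SE 0.08, edgeR adjusted p = 0.0017). Both had groups that did not overlap, and the fall in MKI67 was 1.85-fold, against 1.29-fold in TOP2A.

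Among the 3 genes of the midzone and cytokinesis, PRC1 alone was called. PRC1, which bundles the overlapping microtubules of the central spindle, had 133, 139.6 and 122 CPM in the knockdown libraries, against 305, 318 and 311 CPM in the scrambled libraries (log2 fold change −1.24, SE 0.08, edgeR adjusted p = 7.9e-08). ANLN (anillin), a scaffold of the contractile ring, had 545, 630.0 and 557 CPM after knockdown and 595, 636 and 638 CPM in the controls (log2 fold change −0.11, 95% interval −0.28 to 0.06, edgeR adjusted p = 0.24). ECT2, the exchange factor that switches on RhoA at the division plane, had 149, 176 and 134 CPM after knockdown and 146, 151 and 154 CPM in the controls (log2 fold change 0.03, 95% interval −0.18 to 0.23, edgeR adjusted p = 0.83). The groups of both overlap, and the sign for ECT2 turned negative with library totals (−0.042) and without knockdown replicate 2 (−0.085). Reads of PRC1 per read of ANLN were 0.244, 0.222 and 0.219 after knockdown and 0.513, 0.501 and 0.488 in the controls.

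Summed over the 37 genes, the level was 6412, 6775 and 5995 CPM in the 3 knockdown libraries, against 9024, 9173 and 9336 CPM in the 3 scrambled libraries. The mean was 6394 ± 390.0 CPM after knockdown and 9178 ± 156 CPM in the controls (SD, n = 3), a ratio of 0.697. As shares of reads in genes these were 0.634%, 0.652% and 0.588% after knockdown and 0.926%, 0.940% and 0.949% in the controls. The widest 95% Wilson interval, which covers counting error only, ran from 0.944% to 0.953%, so counting error is small beside the spread between libraries.

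The knockdown libraries were less alike than the scrambled ones. The coefficient of variation had a median over the members of 7.04% in the knockdown and 3.88% in the scrambled libraries. Knockdown replicate 3 held the lowest of the 3 knockdown values in 28 of 37 members, and replicate 2 the highest in 25. Replicate 3 also had the largest share of reads outside genes (18.6%, against 17.8% and 17.3% in the other knockdown libraries), and the part of this in the member values was not tested. Without replicate 3, 30 of the 37 members were still called lower, and the median log2 fold change over the members was −0.49.

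**Figure D3:**
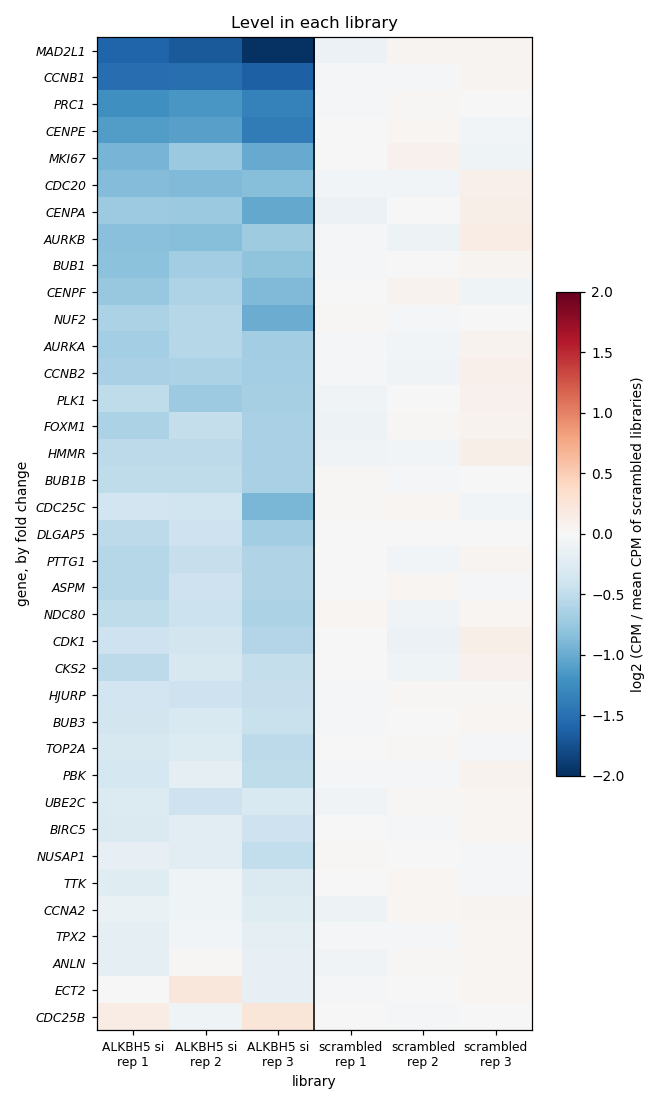
Level of each of the 37 genes in each library as log2 of CPM over the mean of the scrambled libraries, with the 3 ALKBH5 siRNA libraries left of the line and genes ordered by fold change. Blue is lower, and knockdown replicate 3 holds the lowest of the knockdown values in 28 of 37 genes.

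Levels can be set between genes only per length, here as CPM per kilobase of 1 GENCODE 29 transcript per gene, and another choice of transcript would move them. On that scale CCNB1 was first of the 37 genes in the scrambled libraries (228 CPM per kilobase) and number 15 in the knockdown libraries (77.7 CPM per kilobase). UBE2C, second in the scrambled libraries (219.9 CPM per kilobase), led in the knockdown libraries (175 CPM per kilobase). CDC25C and ASPM were the lowest in the scrambled libraries, at 12.04 and 12.29 CPM per kilobase. Exons of 6 members overlap those of a gene on the other strand in GENCODE 29 (MAD2L1, PRC1, CCNA2, ANLN, PLK1 and HMMR), and exons of 3 overlap those of a gene on the same strand (NUSAP1, PRC1 and BUB1B). The strand setting of the counting is not given in the sources used here, so reads of such pairs cannot be told apart, and the levels of these genes are uncertain to that extent.

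Other genes of cell division moved in both directions. Of 139 further genes in 8 lists, all tested, 76 fell and 30 rose, with a median log2 fold change of −0.30, against 30.8% lower and 30.8% higher among all tested genes. All lists were drawn up with earlier results of these data known, and whether the members differ from them was not tested.

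Mitotic kinesins and other spindle genes had medians close to that of the members. Of 11 mitotic kinesins 8 fell and 1, KIF11, rose by 0.26 on the log2 scale (median −0.57). KIF20A, a motor of the central spindle, fell to 70.6 ± 8.05 CPM after knockdown, against 173 ± 5.11 CPM in the controls (SD, n = 3 each). KIF4A, a chromosome-bound motor, fell 1.96-fold, and KIF2C, which takes microtubules apart at centromeres, 1.87-fold. Of 14 spindle and cytokinesis genes 9 fell and 0 rose (median −0.53); limma-voom and DESeq2 also called 0 higher, and 0 of the genes with a positive fold change had an unadjusted p under 0.05. Among those that fell were NUMA1, a dynein anchor at spindle poles (175 ± 10.4 CPM after knockdown and 344 ± 14.4 CPM in the controls), FAM83D (1.83-fold) and FAM64A (1.74-fold).

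Kinetochore and chromatid genes moved in both directions. Of 32 further kinetochore and centromere genes 18 fell and 7 rose (median −0.34). ZWINT, a kinetochore protein that binds the ZW10 complex, fell to 96.01 ± 2.18 CPM after knockdown, against 263 ± 20.5 CPM in the controls, OIP5 of the CENPA loading machinery fell 4.20-fold and CENPH 3.12-fold. Of 22 genes of condensin, cohesin and the passenger complex 12 fell and 6 rose (median −0.38). PDS5A, a cohesin regulator, fell to 91.6 ± 8.49 CPM after knockdown, against 253 ± 16.7 CPM in the controls, CDCA5 (sororin), which protects cohesion, fell 2.20-fold, and the condensin subunit NCAPG 1.98-fold.

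Of 13 genes that act on the CDK1 switch 6 fell and 5 rose (median 0.06). WEE1, the kinase that holds CDK1 inactive, rose to 167 ± 7.25 CPM after knockdown, against 70.9 ± 4.43 CPM in the controls (log2 fold change 1.24, SE 0.08, edgeR adjusted p = 1.1e-07). CCNB3, a meiotic B-type cyclin, fell to 2.29 ± 0.679 CPM after knockdown, against 16.4 ± 2.05 CPM in the controls, and BORA, which activates AURKA toward PLK1, fell 1.93-fold. Of 18 core subunits and regulators of the anaphase-promoting complex and mitotic exit 6 fell and 6 rose (median −0.14), shares close to the 30.8% lower and 30.8% higher among all tested genes. The subunits CDC23 and ANAPC11 rose 1.88-fold and 1.60-fold, and the phosphatase gene CDC14B 2.64-fold.

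Of 14 genes of the DREAM and MuvB complexes, NF-Y and FOXM1's partners 5 fell and 4 rose (median −0.13). These shares are close to the 30.8% lower and 30.8% higher among all tested genes. NFYA, the subunit of NF-Y that contacts the CCAAT box, fell to 46.3, 45.5 and 37.03 CPM in the knockdown libraries, against 156, 148 and 139 CPM in the scrambled libraries (log2 fold change −1.78, SE 0.10, edgeR adjusted p = 3.7e-08). The other subunits NFYB and NFYC had log2 fold changes of 0.34 and −0.26, both called. The MuvB subunit LIN52 fell 1.45-fold, and TFDP1, the partner of E2F factors, rose 1.52-fold. MYBL2 (B-MYB) had 348, 343 and 349.7 CPM after knockdown and 368, 363 and 415 CPM in the controls and was not called (edgeR adjusted p = 0.13). NFYB, NFYC and MYBL2, like KIF11 above and ORC6 below, were named after their values were seen.

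Genes that prepare DNA replication were mostly lower. Of 15 genes of the MCM helicase and its loaders 12 fell and 1, ORC6, rose by 0.43 on the log2 scale (median −0.56). Those that fell include MCM6 (32.9 ± 6.66 CPM after knockdown and 102 ± 7.30 CPM in the controls), MCM7 (2.84-fold) and MCM2 (1.84-fold). The members' median of −0.54 is close to this one, and the difference between the lists was not tested.

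**Figure D4:**
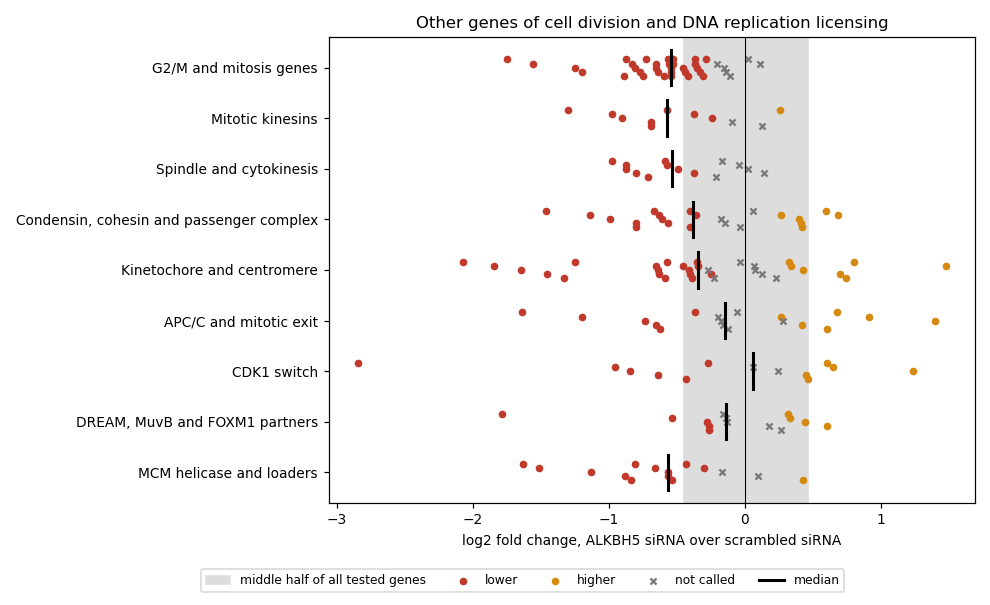
Log2 fold change, ALKBH5 siRNA over scrambled siRNA, of the 37 G2/M and mitosis genes (top row) and of 8 further lists, 1 point per gene, with list medians as black lines and the quartiles of all tested genes as a grey band. The top row and the list of spindle and cytokinesis genes have no gene called higher. The lists of mitotic kinesins and of the MCM helicase and its loaders have 1 each. The lists of the CDK1 switch and of the anaphase-promoting complex spread to both sides of 0.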

How the data were processed

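The authors deposited raw read counts per gene symbol, one file per library and one table of all 6, whose columns equalled the 6 single files in all 23233 lines; 0 columns matched no sample. CASAVA 1.8.2, TopHat2, SAMtools, HTSeq and hg19 are named in the submitters' processing notes. The kit was stranded, per the labels' protocols, and the sources used here give neither the annotation nor the strand setting of the counting. HTSeq's summary rows were kept out (ambiguous reads were 0.737% to 0.856% of uniquely placed reads). Depth was 18817181 to 23410007 reads in genes per library.

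From these counts, edgeR 4.0.16 (R 4.3.3) was run with filterByExpr, TMM scaling, a robust quasi-likelihood fit with group as single term, 2-sided, Benjamini-Hochberg over 14504 genes, threshold 0.05. Each SE is the size of the log2 fold change over the square root of the test's F statistic. Intervals of fold changes use this SE and the test's degrees of freedom. The fit was also run on simulated counts with few changed genes and a single fixed spread between libraries. That setting is unlike these data, and no result here rests on it. Between libraries of a group, chi-square per degree of freedom was 6.18 to 16.9, so none repeats another. Members and gene lists were chosen with earlier results of these data known. Named genes are all members, ALKBH5 and, of each list, the 3 called genes with the smallest adjusted p. Cell type markers were picked for naming from fixed lists after their values were seen, and other genes outside the rule are marked in the text. Alternatives were RLE scaling, library totals, no filter, a filter of 1 CPM in 3 libraries, DESeq2 1.42.0, limma-voom (limma 3.58.1), no robust moderation, glmTreat against 1.5-fold, a block for the replicate number, and leaving out 1 library at a time. Motifs were searched as exact letters in RefSeq promoters (GRCh38.p14), matched by symbol, with the first listed entry taken for each symbol.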

Additional observations from a re-analysis of the deposited data

Results flagged for a closer look

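Reads placed uniquely outside genes, which enter no gene's count, made up 17.868% of uniquely placed reads on average in the ALKBH5 siRNA libraries (17.8%, 17.3% and 18.6%), against 15.3% in the scrambled libraries (15.2%, 15.5% and 15.04%). This was listed because it is a signal outside the counted genes that is higher than in the control libraries, with no overlap between groups.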

How the results depend on the processing

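Of the 37 members, 31 kept their call and direction under all 14 alternatives other than glmTreat, and among the 518 member values under them 1 call was lost, 7 were gained and 2 signs turned. The signs were those of ECT2, at −0.042 with library totals and −0.085 without knockdown replicate 2, its range with 1 library left out being −0.085 to 0.115. The number of members lower ran from 31 to 34 under the other settings of scaling, filter and test and from 30 to 33 with 1 library left out, and the number higher was 0 except 1 without knockdown replicate 2 (range 0 to 1). Against a change of 1.5-fold with glmTreat, which asks for a larger change by its construction, 10 members, 1710 genes in all and 30 genes of the further lists were lower, and 1891 genes in all and 6 of the lists were higher. With 1 library left out, 3979 to 4325 genes in all were lower and 3899 to 4391 higher, and 73 to 81 genes of the lists were lower and 27 to 30 higher. With the replicate number as a block 32 members were lower, TTK being gained (edgeR adjusted p = 0.028), and 4895 genes in all were lower and 4865 higher. Deviations of same-numbered libraries correlated at 0.33, 0.06 and 0.35 across genes. Knockdown replicate 3 with scrambled replicate 1 stood at −0.27, and knockdown replicate 1 with scrambled replicate 3 at −0.37. Replicates 1 and 3 thus went with their own number. Scrambled replicate 2 correlated better with knockdown replicate 1 than with its own number (0.08 against 0.06). Knockdown replicate 2 correlated best with its own number, at 0.06, against −0.04 and −0.01 with scrambled replicates 1 and 3. Because of scrambled replicate 2 the numbers were not taken as pairs in the main fit. The block fit above gives the counts with the numbers taken as pairs. Library totals moved the median of all genes to −0.06. Every member had at least 264 reads in each library.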
